A study of Mus musculus with 4 samples.

Results

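Genes of the solute carrier (Slc) series were compared between GFP-positive and GFP-negative B cells. They were found by symbol, as every gene whose probe name gives an NCBI Gene ID with a mouse symbol of Slc and a number. Such probes covered 128 of 384 Slc genes in the mouse RefSeq annotation, and 19 of 48 in the Slc25 family. The other Slc genes had no probe matched by name, so the counts below describe only a part of the series. A gene was tested where a probe had a detection p below 0.05 on at least 2 of the 4 arrays, which left 57 Slc genes among 15215 tested features. Of these, 15 were Slc25 genes and 42 belonged to other Slc families. All cells were cultured B cells of the C57BL/6 background with the genotype prdm1-/-, in both groups alike, so that they lack the transcription factor Blimp-1, a driver of plasma cell differentiation. The cultures received CD40 ligand together with IL-4 and IL-5, each at 10 U/mL, and were sorted by GFP on day 4. There were 2 arrays of GFP-positive cells, with pre-plasmablasts as the labelled cell type, and 2 of GFP-negative cells, with B cell blasts as the labelled cell type. The sample titles call the cells of both groups B cell blasts. The labels give neither the age of the mice nor the locus that carries GFP, and do not say whether the 2 replicates of a group were separate cultures or animals. Replicates are called positive array 1 and 2 and negative array 1 and 2. The p-values thus cover the spread of these 4 arrays alone, part or all of which may be technical.

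Solute carriers move small molecules across membranes along or against their gradients. Those of the plasma membrane bring amino acids, sugars, nucleosides, vitamins and ions into the cell, and others serve lysosomes, the Golgi apparatus or synaptic vesicles. Slc25 proteins lie mainly in the inner mitochondrial membrane, where they exchange nucleotides, cofactors and intermediates of metabolism between the matrix and the cytosol. Activated B cells take up nutrients to grow and divide, and cells on the way to antibody secretion also need amino acids for immunoglobulin synthesis.

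Most Slc genes did not pass the test for a difference between the groups. With so few arrays, that does not show that they were unchanged. Of the 57 tested, 3 were higher in GFP-positive cells, 4 were lower and 50 were not called (limma, Benjamini-Hochberg adjusted p below 0.05 over all features). This is 12.3% of them, near the 11.1% called among all features, of which 5.83% were higher and 5.29% lower. The glycine transporter gene Slc6a9 had the largest change, an increase of 1.20 log2 units. The nucleoside transporter gene Slc28a2 had the largest decrease, of 0.67 as a log2 change. Groups did not overlap for 27 of the 57 genes (47.4%), against 55.8% of all features. The median change of the Slc genes was -0.01, and that of all features was -0.02.

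Among the Slc25 genes, 0 were higher, 1 was lower and 14 were not called by limma. At an unadjusted p below 0.05 the counts were 0 higher and 2 lower, where 12.1% of all features were higher and 14.6% lower. In the other Slc families, 3 genes were higher, 3 were lower and 36 were not called. The share called was 6.67% for Slc25 and 14.3% for the others, 1 and 6 genes, on either side of the 11.1% of all features. The median change was -0.02 for Slc25 genes and 0.01 for the others. Changes of Slc25 genes lay closer to 0, with a median size of 0.03 log2 units against 0.12 for the others and 0.13 for all features. A change smaller than 0.1 was seen in 9 of 15 Slc25 genes (60%), 19 of 42 others (45.2%) and 41% of all features. The difference between the families was not tested, because the members were chosen with earlier results known.

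The size of a change on this scale went with the brightness of the probe. Probes detected on no array read between 7.88 and 8.16 (central 95% of values), a narrow band at the bottom of the scale. Changes of dim probes may be understated, which was not tested. The mean over the 4 arrays was below 9 for 9 of the 15 Slc25 genes and 23 of the 42 others, a level set after the data were seen. Among the genes at or above it, the median size of the change was 0.17 for 6 Slc25 genes, 0.26 for 19 others and 0.22 for all features. Below it, the values were 0.02, 0.07 and 0.09. Brightness of the probe thus moved with the size of the change, and its part in the low values of the Slc25 genes was not tested further.

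**Figure D1:**
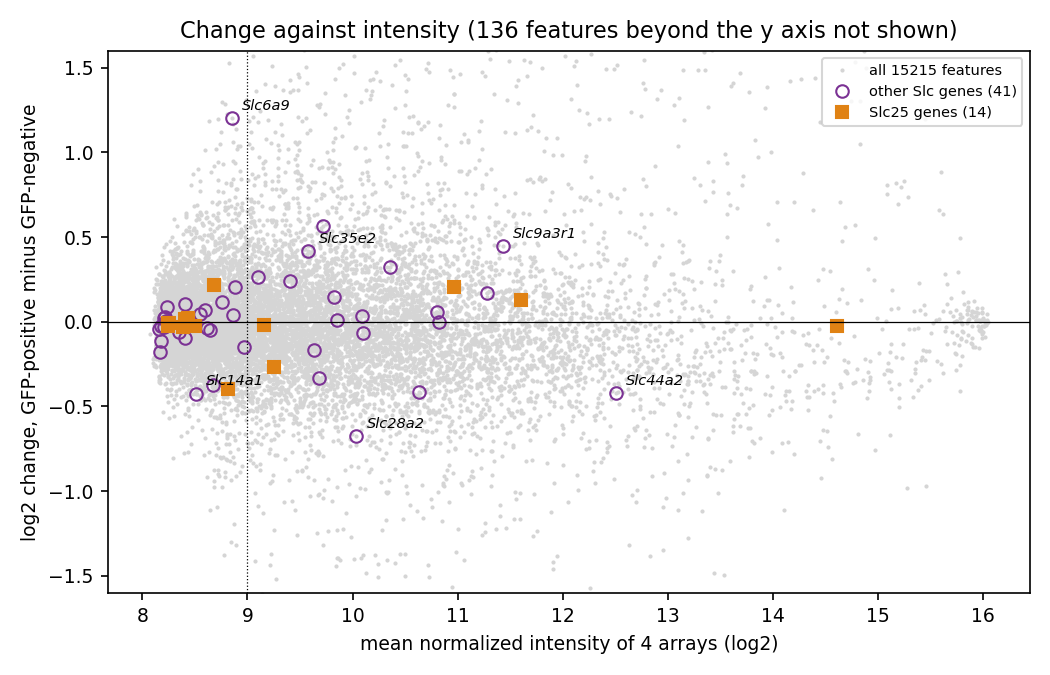
Log2 change (GFP-positive minus GFP-negative, y axis) against mean normalized log2 intensity of the 4 arrays (x axis) for all 15215 features (grey), 41 of the 42 other Slc genes (purple circles) and 14 of the 15 Slc25 genes (orange squares), with 6 of the 7 called Slc genes named and a dotted line at an intensity of 9. Most members gather at the dim end near a change of 0, Slc6a9 stands alone at 1.20, and 136 features beyond a change of 1.6 in size are not shown.

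Of 3 tested genes in the amino acid families, 1 was called, Slc6a9, where 11.1% of all features were called. The median change of these 3 genes, which include Slc7a6os, not itself known as a transporter, was -0.37. Slc6a9 encodes GlyT1, which carries glycine into cells with sodium and chloride. It read 9.39 and 9.51 log2 units on the GFP-positive arrays and 8.27 and 8.23 on the GFP-negative arrays, and was detected on all 4. The groups did not overlap. Slc6a9 rose by 1.20 (SE 0.08, adjusted p = 0.0019). The GFP-negative values lie close to the band of undetected probes, so the change may be understated. With an array left out, Slc6a9 alone among the called Slc genes passed in all 4 fits, with adjusted p between 0.00602 and 0.0103.

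Both other genes that the family numbers place in this group were not called. At an unadjusted p below 0.05 by limma, the counts among the 3 genes were 1 higher, Slc6a9, and 2 lower. Among all features 12.1% were higher and 14.6% lower at that level. Slc38a9 encodes a lysosomal arginine transporter that signals amino acid supply to the kinase complex mTORC1, and it was picked with its value known. It read 8.50 and 8.47 in GFP-positive cells and 8.67 and 9.05 in GFP-negative cells, a change of -0.37 (SE 0.14, adjusted p = 0.164). With negative array 1 left out it passed at a change of -0.56 (adjusted p = 0.0456), and with negative array 2 left out the change was -0.18. Slc7a6os is named for its position opposite the transporter gene Slc7a6 and is not itself known as a transporter. It read 10.53 and 10.33 against 11.05 and 10.64, a change of -0.41 (SE 0.16, adjusted p = 0.179). Of further amino acid carriers, Slc7a1, Slc7a11, Slc38a3 and Slc1a1 had probes that were detected on no array.

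Slc28a2, among the carriers of nucleosides, encodes CNT2, which takes up purine nucleosides with sodium. It read 9.58 and 9.81 in GFP-positive cells and 10.41 and 10.34 in GFP-negative cells. The groups were apart by more than the distance within either of them. Slc28a2 fell by 0.67 (SE 0.10, adjusted p = 0.0174). It passed again with positive array 2 left out (-0.79, adjusted p = 0.0244). With positive array 1 left out (-0.56) or either negative array left out it missed the threshold, with adjusted p between 0.054 and 0.058.

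The region before the start of transcription is shown for Slc6a9 and Slc28a2, which had the largest rise and the largest fall of the family. Each window runs from 250 bases before to 50 bases after an annotated start, from RefSeq on GRCm38.p6. That of Slc6a9 is chr4:117835008-117835307 on the plus strand, and that of Slc28a2 is chr2:122426185-122426484 on the plus strand. Capitals mark matches, on either strand, to any of 6 motifs. The E-box was searched as CACGTG, and the TATA box as TATAAA. The CCAAT box has its letters in its name, and the GC box was searched as GGGCGG. The cyclic AMP response element was TGACGTCA. The amino acid response element was searched as TGATGNAA, where N is any base.
Slc6a9: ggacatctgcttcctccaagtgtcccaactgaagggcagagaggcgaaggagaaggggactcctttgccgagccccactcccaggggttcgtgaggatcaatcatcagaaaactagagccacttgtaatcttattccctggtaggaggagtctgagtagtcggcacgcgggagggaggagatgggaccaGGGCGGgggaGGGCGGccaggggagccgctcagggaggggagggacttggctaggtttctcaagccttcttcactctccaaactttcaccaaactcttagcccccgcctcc
Slc28a2: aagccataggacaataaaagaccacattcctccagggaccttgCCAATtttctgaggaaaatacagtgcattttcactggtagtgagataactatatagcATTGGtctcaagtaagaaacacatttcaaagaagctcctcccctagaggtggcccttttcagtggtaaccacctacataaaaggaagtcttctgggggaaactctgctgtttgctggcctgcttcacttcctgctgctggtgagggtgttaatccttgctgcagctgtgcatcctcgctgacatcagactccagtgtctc
The Slc6a9 window has 59% G and C with 10 CpG dinucleotides and 2 GC boxes, at bases 190 to 195 and 200 to 205. The Slc28a2 window has 46.7% G and C with 1 CpG and 2 CCAAT matches, at bases 44 to 48 and, on the minus strand, 101 to 105. No matches overlapped. Slc6a9 has 3 annotated starts in the table, the other windows held no match, and the arrays do not tell which start was used. Among all 32851 windows, 35.7% held GGGCGG and 37.4% CCAAT. A match is only a description of the letters.

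Windows were found for 41 of the 57 tested Slc genes, 9 of them of the Slc25 family. GGGCGG stood in 13 of 14 Slc25 windows (92.9%) and in 24 of 44 windows of other Slc genes (54.5%). CCAAT was in 8 of the Slc25 windows (57.1%) and in 12 of the others (27.3%). CACGTG occurred in 1 Slc25 window (7.14%) and 4 others (9.09%), against 7.15% of all windows. TATAAA was in 0 of the 14 and in 5 of the 44 (11.4%), against 13.6%. TGACGTCA was in 2 (14.3%) and 1 (2.27%), against 1.79%, and TGATGNAA in 0 of either set, against 3.97%. Both sets were richer in CpG than windows at large, with a median of 15.5 for Slc25 and 17 for the others against 7. The windows at large cover 27025 genes whether detected or not, while both Slc sets hold only genes that passed the detection filter. The part of that filter in these contrasts was not tested. Windows of the same gene share sequence context and are not independent, and no test was made.

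Of the Slc35 family, which carries nucleotide sugars into the Golgi apparatus and the endoplasmic reticulum, 9 genes were tested. Only Slc35e2 rose, 0 genes fell by limma, and 8 did not pass, which is a share of 11.1% called, as among all features. At an unadjusted p below 0.05 the counts were 1 higher and 0 lower. The substrate of Slc35e2 is not well known. It read 9.79 and 9.78 in GFP-positive cells and 9.38 and 9.36 in GFP-negative cells. Arrays within a group nearly coincided, and Slc35e2 rose by 0.42 (SE 0.08, adjusted p = 0.0276). Its change stayed between 0.40 and 0.43 with any array left out, but it missed the threshold each time, with adjusted p between 0.0903 and 0.132. It also missed it with an eBayes trend (adjusted p = 0.0564). Among those not called, Slc35e3 had the largest change, with 9.44 and 9.65 against 9.67 and 9.75 (-0.17, SE 0.10, adjusted p = 0.378). The family's changes ran from -0.17 to 0.42 with a median of 0.00.

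**Figure D2:**
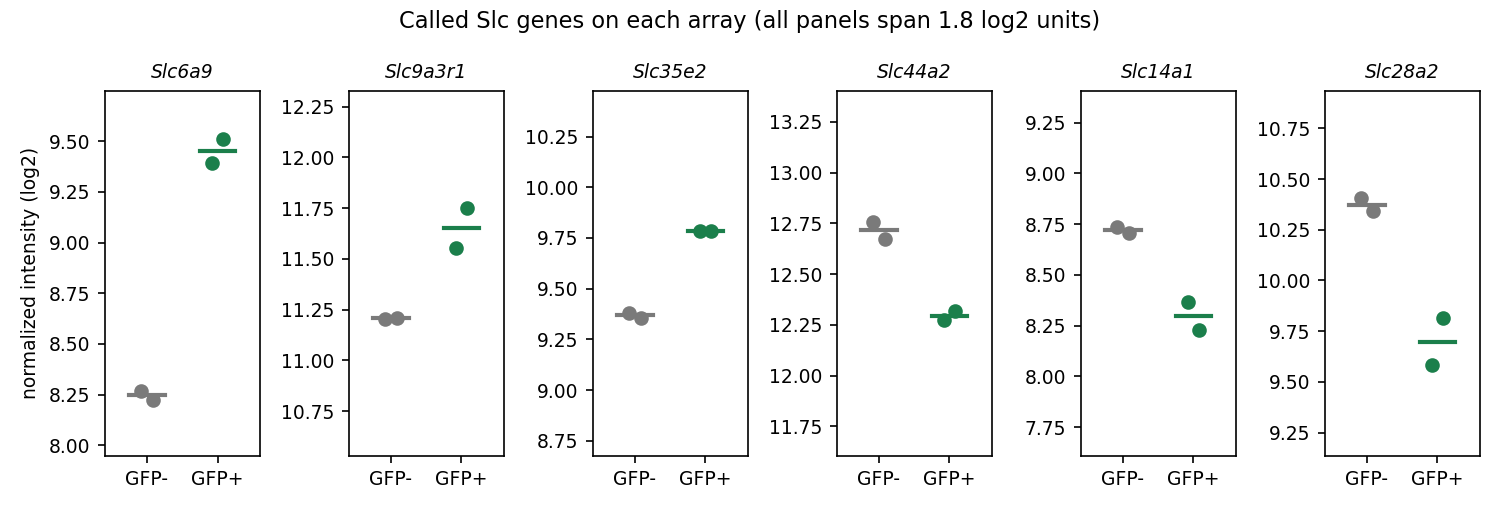
Normalized log2 intensity (y axis) of 6 of the 7 called Slc genes in GFP-negative (grey) and GFP-positive (green) cells, with a point for each array and a line for the mean of 2 arrays; every panel spans 1.8 log2 units. The groups are apart in each panel, by 1.20 for Slc6a9 and by 0.42 to 0.67 in size for the other genes.

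Slc9a3r1, the other gene that rose, carries the family's name because its product, the scaffold NHERF1, binds a sodium-proton exchanger. It is not a transporter itself. It read 11.55 and 11.75 in GFP-positive cells and 11.20 and 11.21 in GFP-negative cells. The GFP-positive arrays lay further apart than the GFP-negative arrays, and both stood above them. Slc9a3r1 rose by 0.45 (SE 0.10, adjusted p = 0.0451), but missed the threshold in all 4 fits with an array left out, with adjusted p between 0.0576 and 0.153, and with an eBayes trend (adjusted p = 0.0683). Leaving out positive array 2 gave a change of 0.35. With Slc9a3r1 and Slc7a6os set aside, 2 of 40 other Slc genes were higher (5%) and 3 lower (7.5%). Among all features, 5.83% were higher and 5.29% lower.

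Slc44a2 and Slc14a1, of the families that carry vitamins, lipids and organic molecules, fell. Slc44a2 encodes a choline transporter-like protein. It read 12.27 and 12.32 in GFP-positive cells and 12.76 and 12.67 in GFP-negative cells, a decrease of 0.42 in log2 units (change -0.42, SE 0.08, adjusted p = 0.0325). A dimmer second probe of Slc44a2 read 9.12 and 9.004 against 9.04 and 9.66, and there the groups overlapped (-0.29, SE 0.20, adjusted p = 0.452 in a fit of single probes). With the mean of both probes Slc44a2 was not called (adjusted p = 0.112), nor with cyclic loess (adjusted p = 0.0829), an eBayes trend (adjusted p = 0.0571) or any array left out, with adjusted p between 0.0943 and 0.127.

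Slc14a1 encodes the urea transporter UT-B. It read 8.37 and 8.23 in GFP-positive cells and 8.74 and 8.71 in GFP-negative cells, near the bottom of the scale. The groups did not overlap, and Slc14a1 fell by 0.43 (SE 0.09, adjusted p = 0.0387). Its second probe read 8.04 and 8.27 against 8.54 and 8.83, with a change of -0.53 (SE 0.14, adjusted p = 0.07 in the fit of single probes). Both probes thus had a negative sign, and their mean was called (adjusted p = 0.0269). With an array left out, the brighter probe missed the threshold in all 4 fits, with adjusted p between 0.0723 and 0.132. The other 7 genes of this mixed group were not called, which makes a share of 22.2% called, against 11.1% of all features.

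**Figure D3:**
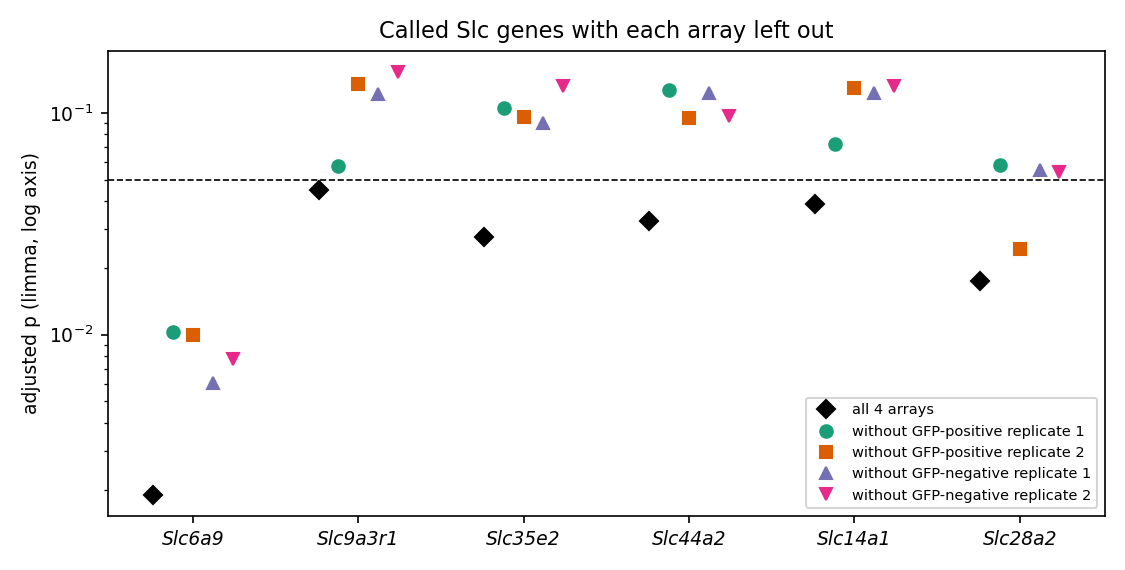
Adjusted p of the limma test (y axis, log scale) for 6 of the 7 called Slc genes with all 4 arrays (black diamonds) and with each array left out (coloured symbols); the dashed line is the threshold of 0.05. Slc6a9 stays below the line in all 4 fits, Slc28a2 in 1 of 4, and the other genes drawn in 0 of 4.

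Fits with an array left out also called fewer features in general, from 5.55% to 8.07% of all features against 11.1% with 4 arrays. Between 2 and 3 Slc genes were called in each of these fits.

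Among the mitochondrial carriers that were not called, Slc25a36 and Slc25a22 had the largest changes. Slc25a36, a carrier of pyrimidine nucleotides, read 8.61 and 8.63 in GFP-positive cells and 8.92 and 9.11 in GFP-negative cells, without an overlap (-0.39, SE 0.09, adjusted p = 0.0575). With an eBayes trend it passed (adjusted p = 0.0488). Slc25a22, a carrier of glutamate with protons, read 9.09 and 9.16 against 9.27 and 9.51, also without an overlap (-0.27, SE 0.11, adjusted p = 0.196).

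Positive signs were seen in 5 Slc25 genes, of which 3 had changes above 0.1 and none was called by limma, also at an unadjusted p below 0.05. Slc25a10, the dicarboxylate carrier for malate and succinate, read 8.64 and 8.95 in GFP-positive cells and 8.51 and 8.64 in GFP-negative cells (0.22, SE 0.13, adjusted p = 0.347). Slc25a45, a member less well studied, read 10.99 and 11.15 against 10.81 and 10.92 (0.20, SE 0.10, adjusted p = 0.254). For Slc25a39, which is needed for the import of glutathione, the values were 11.68 and 11.65 against 11.60 and 11.47 (0.13, SE 0.08, adjusted p = 0.41). In these 3 genes every GFP-positive array stood above the GFP-negative arrays. For Slc25a10 this rests on 8.639 on positive array 1 against 8.636 on negative array 2. Groups did not overlap, in either direction, for 6 of the 15 Slc25 genes (40%), against 55.8% of all features.

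The adenine nucleotide translocase gene Slc25a5 had the brightest Slc25 probe, with 14.47 and 14.73 in GFP-positive cells and 14.65 and 14.60 in GFP-negative cells. The GFP-positive arrays lay on both sides of the GFP-negative arrays, and the change was -0.03 (SE 0.11, adjusted p = 0.919). Slc25a5 has close paralogs, and whether its probe tells them apart was not tested. Slc25a44, a carrier of branched-chain amino acids, had the same pattern with 9.04 and 9.25 against 9.14 and 9.19 (-0.02, SE 0.10, adjusted p = 0.948). Both genes were bright enough to be read well above the band of undetected probes.

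The remaining 7 Slc25 genes read between 8.12 and 8.54 on every array, near the bottom of the scale, and their groups overlapped. Slc25a26, which imports S-adenosylmethionine, read 8.45 and 8.53 in GFP-positive cells and 8.54 and 8.49 in GFP-negative cells. Slc25a51, the carrier of NAD, read 8.12 and 8.37 against 8.25 and 8.25. For Slc25a25, which exchanges ATP-magnesium for phosphate, the values were 8.47 and 8.37 against 8.47 and 8.33. In Slc25a26 and Slc25a25 the arrays of each group lay further apart than the group means did, and in Slc25a51 those of the GFP-positive group.

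Slc25a46, an outer membrane member involved in mitochondrial dynamics, read 8.27 and 8.20 against 8.29 and 8.22. Slc25a27 and Slc25a30 are relatives of the uncoupling proteins. Slc25a27 read 8.26 and 8.21 against 8.29 and 8.21, and Slc25a30 8.36 and 8.52 against 8.42 and 8.42. Slc25a53, an orphan member, read 8.43 and 8.32 in GFP-positive cells and 8.37 and 8.43 in GFP-negative cells. Changes of these 7 genes ran from -0.03 to 0.02, with adjusted p from 0.882 to 0.979. A further 4 Slc25 genes, Slc25a31, Slc25a35, Slc25a40 and Slc25a42, had probes that were detected on no array.

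**Figure D4:**
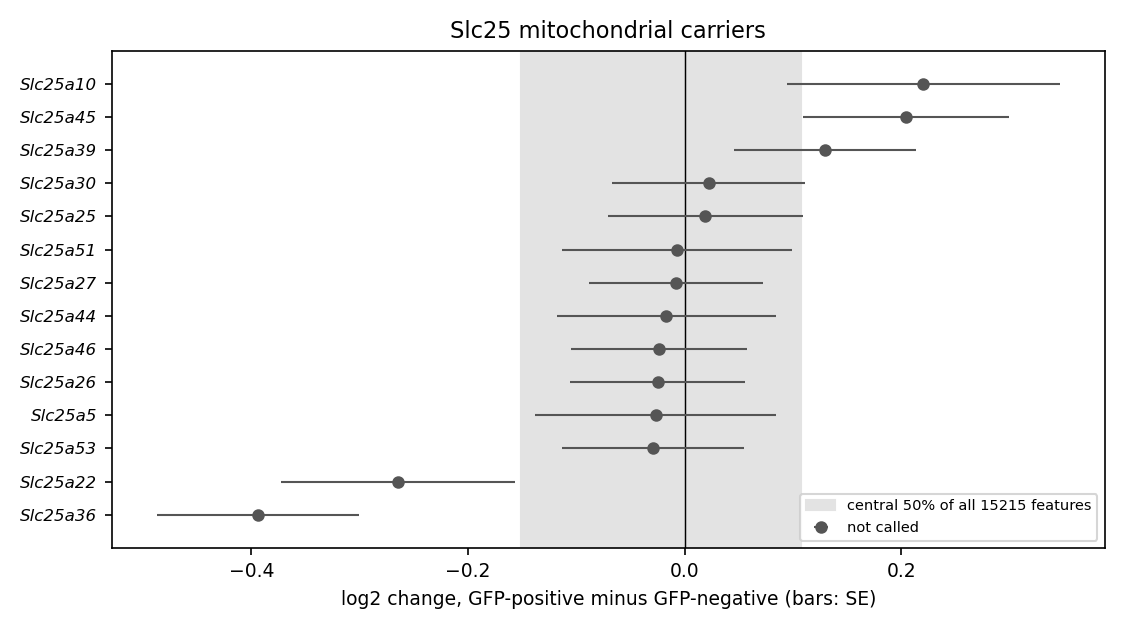
Log2 change (GFP-positive minus GFP-negative, x axis) of 14 of the 15 Slc25 genes, with bars for the SE and grey shading for the central 50% of all features (-0.15 to 0.11). Of the genes drawn, 0 were called by limma, Slc25a36 at -0.39 lies farthest from 0, and 9 lie within 0.1 of 0.

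Zinc importers of the Slc39 family had positive signs in 5 of 5 tested genes, with changes from 0.04 to 0.57. Among all 15215 features, 7029 had a positive sign. The groups of Slc39a1, Slc39a3 and Slc39a9 overlapped, and their sign turned with an array left out. By limma 0 of the 5 were called, against 11.1% of all features. At an unadjusted p below 0.05, 2 were higher and 0 lower, where 12.1% of all features were higher and 14.6% lower. Slc39a11 read 9.79 and 10.22 in GFP-positive cells and 9.43 and 9.45 in GFP-negative cells, a change of 0.57 (SE 0.15, adjusted p = 0.081). The GFP-positive arrays stood far from each other and above both GFP-negative arrays. With positive array 1 left out it passed at a change of 0.79 (adjusted p = 0.025), and with positive array 2 left out the change was 0.35 (adjusted p = 0.135). Slc39a10, also picked with its value known, read 8.999 and 8.98 against 8.77 and 8.80 (0.20, SE 0.08, adjusted p = 0.166). The zinc exporter Slc30a3, detected on 2 arrays with a mean of 8.18, had a change of -0.03. For the exporter Slc30a6 the change was 0.01, with GFP-positive arrays at 9.62 and 10.10 and GFP-negative arrays at 9.77 and 9.92.

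The metal carriers as a whole numbered 9, of which 0 were called by limma, against 11.1% of all features. At an unadjusted p below 0.05, 2 of the 9 were higher and 0 lower, against 12.1% and 14.6% of all features. Slc11a1, another gene picked with its value known, is NRAMP1, a divalent metal carrier of phagocyte lysosomes. It read 10.83 and 10.21 in GFP-positive cells and 10.32 and 10.07 in GFP-negative cells, an overlap (0.33, SE 0.22, adjusted p = 0.416). With positive array 1 left out its change was 0.02.

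Among 7 genes of the ion carrier families, Slc9a3r1 was the 1 called gene, a share of 14.3% against 11.1% of all features. The bicarbonate carriers Slc4a2, Slc4a7 and Slc4a8 had changes from -0.07 to 0.24, none of them called.

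None of the 4 carriers of sugars and monocarboxylates was called by limma, where 11.1% of all features were. At an unadjusted p below 0.05 the count was also 0, against 12.1% of all features higher and 14.6% lower. Slc16a6, a monocarboxylate transporter, read 9.66 and 9.37 in GFP-positive cells and 9.96 and 9.74 in GFP-negative cells (-0.33, SE 0.13, adjusted p = 0.189). The glucose transporter gene Slc2a8 and the myo-inositol transporter gene Slc2a13 were detected on 2 arrays, with changes of 0.09 and 0.02. Of the vitamin and lysosomal carriers that were not called, Slc66a1, a lysosomal exporter of cationic amino acids, had the largest change. It read 9.27 and 9.20 against 8.89 and 9.05, without an overlap (0.26, SE 0.09, adjusted p = 0.147). The folate carrier gene Slc19a1 and the riboflavin carrier gene Slc52a2 had changes of -0.15 and 0.12.

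**Figure D5:**
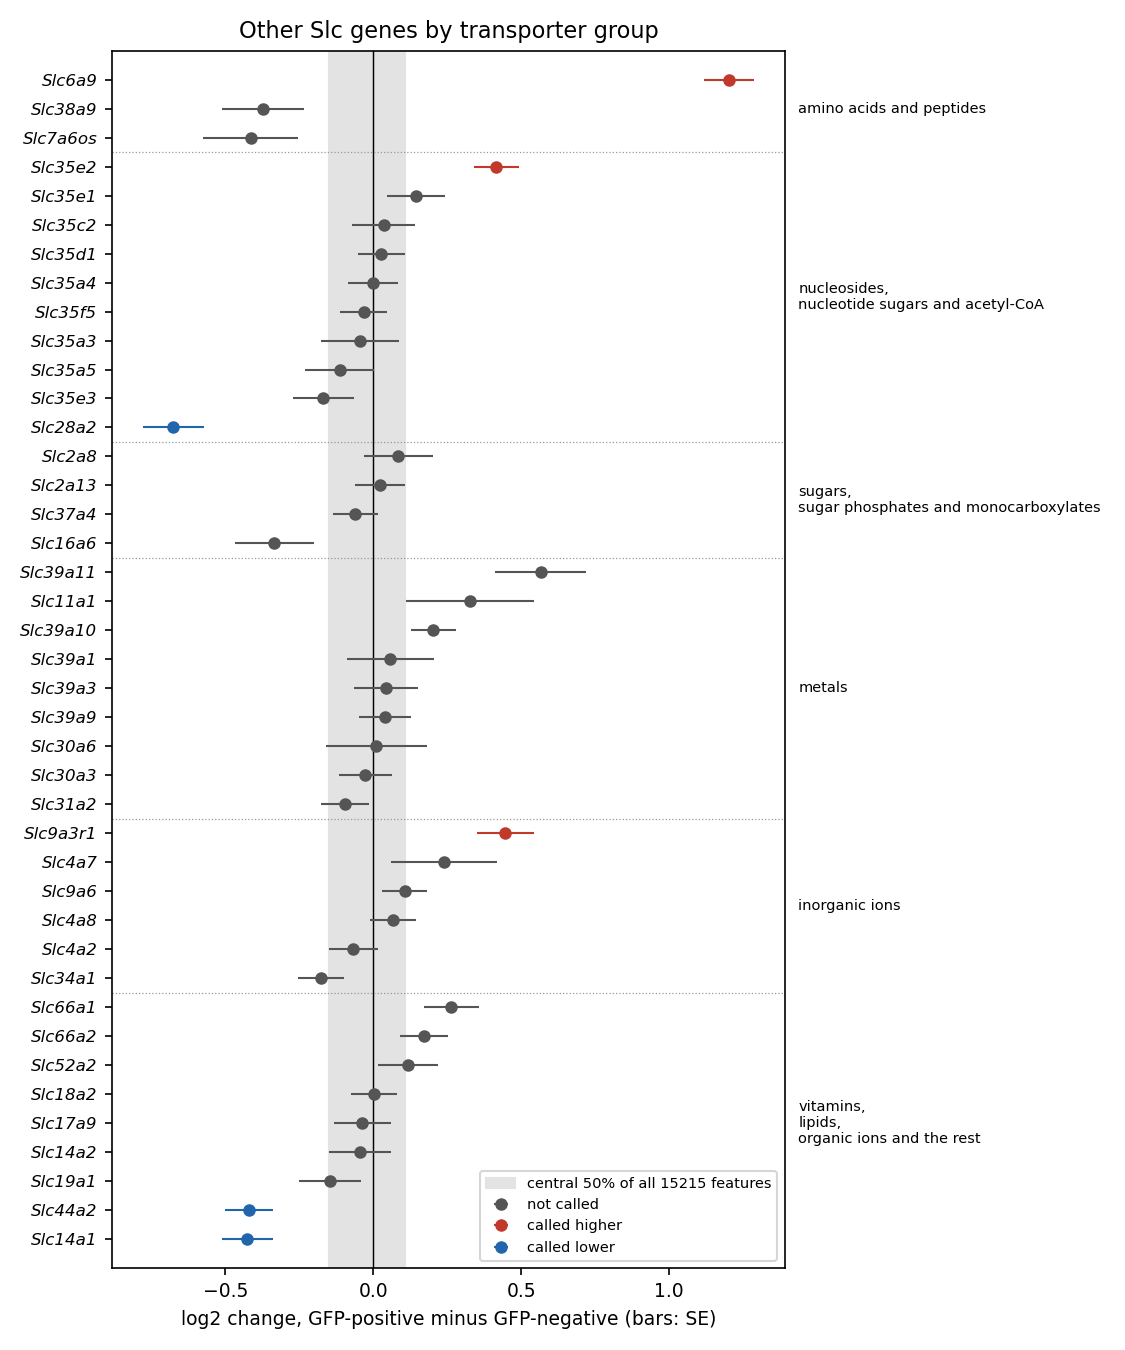
Log2 change (GFP-positive minus GFP-negative, x axis) of 41 of the 42 other Slc genes in 6 transporter groups set by family number, with bars for the SE, red and blue for genes called higher and lower, and grey shading for the central 50% of all features. Slc6a9 at 1.20 and Slc28a2 at -0.67 are the ends of the range.

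Transport genes outside the Slc series were counted in lists, to be read against the 5.83% of all features called higher and the 5.29% called lower. Across mitochondrial membranes, a single gene of 17 rose (5.88%), 0 fell, and 16 did not pass, with a median change of 0.05. The gene that rose was Sfxn3, a sideroflexin, a family that carries serine into mitochondria. It read 12.16 and 12.23 in GFP-positive cells and 11.43 and 11.28 in GFP-negative cells, an increase of 0.84 (SE 0.09, adjusted p = 0.00592) that was called with any array left out (adjusted p at most 0.0313). Of Slc25-type carriers with other names, only Mtch2 was tested, with a change of -0.24 (adjusted p = 0.226).

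Among pumps and ABC transporters, 2 of 15 rose, 2 fell and 11 were not called, a share of 26.7% against 11.1% of all features, with a median change of -0.08. Atp1b1, the beta subunit of the sodium pump whose gradient drives carriers such as GlyT1, read 11.14 and 11.31 in GFP-positive cells and 9.89 and 10.28 in GFP-negative cells. Atp1b1 rose by 1.14 (SE 0.15, adjusted p = 0.0112), and just missed the threshold with positive array 2 left out (adjusted p = 0.051). Abca3, a lipid transporter, rose by 0.82 (SE 0.08, adjusted p = 0.00489). Atp2c1, a Golgi calcium pump, fell by 0.46 (adjusted p = 0.0234) and Abcg1, a cholesterol exporter, by 0.43 (adjusted p = 0.0276). Both of the latter missed the threshold with any array left out, with adjusted p between 0.0791 and 0.13. Atp2c1 missed it with the mean of its probes (adjusted p = 0.238), and Abcg1 with an eBayes trend (adjusted p = 0.0647).

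Of 4 tested ion channel genes, 1 rose, 1 fell and 2 were not called, against 11.1% of all features called. Hvcn1, the voltage-gated proton channel of B cells, read 12.86 and 12.98 in GFP-positive cells and 13.77 and 13.88 in GFP-negative cells. It fell by 0.90 (SE 0.09, adjusted p = 0.00502) and was called with any array left out. Clic4, an intracellular chloride channel protein, rose by 0.66 (SE 0.10, adjusted p = 0.0176), and missed the threshold with positive array 2 or either negative array left out, with adjusted p between 0.054 and 0.0603. In the list of nutrient sensing by mTORC1 and ATF4, 1 of 8 rose, 0 fell and 7 were not called, a share of 12.5%, near the 11.1% of all features. Rps6kb1, the S6 kinase below mTORC1, rose by 0.65 (SE 0.14, adjusted p = 0.0416). It missed the threshold with positive array 1 or either negative array left out, with adjusted p between 0.0903 and 0.105, and when no filter on dim probes was set (adjusted p = 0.0649).

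Markers of cell types were read on the same arrays. Of 9 listed B-cell markers, 2 had a matched probe, Cd74 and Ebf1, and both were detected on all 4 arrays. Cd74 read near the top of the scale at 16.01 to 16.07 and was not called by limma (0.04, adjusted p = 0.787). Ebf1, a transcription factor of B cells, fell by 0.72 (adjusted p = 0.00562). Of the plasma cell markers tested, Xbp1, Ell2 and Ssr4 rose, by 0.70 to 0.88. Sdc1, a further plasma cell marker with a probe, did not pass the detection filter. Jchain, the joining chain of secreted antibodies, was detected on 2 arrays. It read 9.84 and 9.34 in GFP-positive cells and 8.16 and 7.95 in GFP-negative cells. The GFP-negative values lie within the band of undetected probes, so its fitted change of 1.53 is no measure of the full difference. By these values Jchain passed the filter only through the group where it is high, so its higher reading is described and not taken as a test. With positive array 2 left out, Xbp1 (adjusted p = 0.0601) and Ssr4 (adjusted p = 0.0537) missed the threshold. Ell2 missed it with any of the other 3 arrays left out, with adjusted p between 0.0795 and 0.135, and when no filter on dim probes was set (adjusted p = 0.0741). Probes of the T-cell markers Cd3e and Cd8b1 did not pass the detection filter. Of 7 myeloid markers with a probe, Itgam alone passed, on 2 arrays, with 8.30 and 8.28 in GFP-positive cells and 7.96 and 7.98 in GFP-negative cells (0.32, adjusted p = 0.0562). The GFP-negative values of Itgam lie within the band of undetected probes, so by its values it too passed the filter only through the group where it is high. Itgam passed when no filter on dim probes was set (adjusted p = 0.0292) and with an eBayes trend (adjusted p = 0.00476), and missed the threshold in all 4 fits with an array left out (adjusted p from 0.147 to 0.203). In such sorted bulk samples, fewer cells of a type and less RNA per cell cannot be told apart.

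The detection filter set the lower end of the family. The 7 Slc genes detected on 2 arrays had means from 8.16 to 8.24, and the 12 detected on 1 array, which were not tested, from 8.10 to 8.19. A further 59 were detected on 0 arrays. Of the tested genes, 47 were detected on all 4 arrays, among them all 7 called genes.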

How the data were processed

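Single-colour Illumina bead arrays measured RNA of 2 GFP-positive and 2 GFP-negative samples. The deposited normalized log2 intensities were made with lumi, per the submitters' processing notes; neither its version nor its background step or transformation is stated in the labels. Values were treated as log2. The median was 8.09 on each array, values ran from 7.71 to 16.07, and sorted columns differed by at most 0.00267. The deposited detection p-values served only for the filter, which needs a value below 0.05 on 2 or more arrays and no assignment of columns to samples. The 4 unnormalized signal columns have names that match no sample label and were not used. The number of arrays limits the precision.

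Probe names beginning with scl and 1 or 2 zeros were read as NCBI Gene IDs, of which 9807 of 11868 (82.6%) matched the RefSeq table of GRCm38.p6. Each gene was represented by its brightest detected probe, and probes without a symbol were tested singly. Groups came from sample titles. GFP-positive minus GFP-negative was fitted over 15215 features by limma 3.58.1 (R 4.3.3; lmFit, then eBayes; two-sided, without trend or block). Degrees of freedom were 2 residual and 3.40 prior, and p-values were adjusted by Benjamini and Hochberg over all features. The code was tested on simulated data. With 2 arrays a group, the smallest exact permutation p is 0.33, so no such test was run.

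All counts cover every tested Slc gene; 2 of these genes, 1 of them called, are not reported singly or drawn here. Array values were given for called genes, Slc25 genes and the largest uncalled change of each transporter group, and up to 4 called members of each further list were named. Members and lists were chosen with earlier results of these data known. The 10 alternatives changed the dim-probe filter, normalization, probe choice, variance trend and block, or left out an array.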

Additional observations from a re-analysis of the deposited data

How the results depend on the processing

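The count of called Slc genes, 7 with all arrays, ran from 2 to 3 with an array left out. In those fits Slc25 genes called lower ran from 0 to 1 (1 with all arrays) and higher stayed at 0, while other Slc genes called higher ran from 1 to 2 and lower from 0 to 2 (3 each with all arrays). The medians ran from -0.06 to 0.02 for Slc25 genes and from -0.05 to 0.06 for the others, so their sign is not fixed. Slc25 genes called lower numbered 0 with no filter on dim probes, 0 with cyclic loess and 2 with an eBayes trend, which left 1 other Slc gene called higher. No filter and fewer arrays change the number of features or arrays by construction; for cyclic loess and the trend the cause was not tested.

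With the replicate number as a block (replicate block), 15 Slc genes were called: 3 Slc25 genes lower, 5 others higher and 7 lower, against 26.2% of all features. Those added under the block include Slc7a6os, Slc38a9, Slc25a36, Slc25a22, Slc39a11, Slc11a1 and Slc16a6, and Itgam passed too. Same-numbered arrays deviated together (correlation 0.44 across features), but 2 pairs and labels without a stated pairing do not show that the numbers pair the samples.

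Uncalled genes near 0 changed sign. Cyclic loess gave 0.088 for Slc25a5 and 0.006 for Slc25a44. With an array left out, the lowest and highest changes were -0.083 and 0.026 for Slc25a53, -0.158 and 0.105 for Slc25a5, -0.067 and 0.016 for Slc25a26, -0.06 and 0.011 for Slc25a46, -0.125 and 0.091 for Slc25a44, -0.048 and 0.033 for Slc25a27, -0.13 and 0.116 for Slc25a51, -0.047 and 0.086 for Slc25a25, -0.057 and 0.102 for Slc25a30, -0.15 and 0.267 for Slc39a1, -0.078 and 0.165 for Slc39a3, -0.03 and 0.111 for Slc39a9, -0.105 and 0.051 for Slc30a3, -0.232 and 0.255 for Slc30a6, -0.054 and 0.224 for Slc2a8, and -0.037 and 0.086 for Slc2a13. The other Slc genes whose values are given kept their sign in the alternatives run. Signal close to the undetected band limits what dim members can show.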
